A study of Mus musculus with 16 samples.

Results

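Collagens, laminins, integrins and fibronectin were followed from mouse embryonic stem (ES) cells into sorted endoderm and mesoderm. Members were all genes with symbols of the form Col plus number plus a plus number, Lama, Lamb or Lamc plus digit, Itga or Itgb plus number, and Fn1. A gene was read from its brightest probe set that carries no other symbol. The rule gave 76 of the 19938 genes named by the array, made up of 44 collagen chains, 10 laminin chains, 21 integrin chains (12 alpha and 9 beta) and fibronectin. All 76 were among the 32000 probe sets of highest mean that entered the tests.

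Every cell carried the heterozygous knock-in reporters TGFP/+; Foxa2tagRFP/+, and the labels give the line as E14.1 on a 129/Ola background. ES cells were cultured on fibroblast feeders and were not sorted. Before differentiation, feeders were depleted on gelatine and the cells were moved onto feeders that express Wnt3a. For endoderm the medium held activin A at 12 ng/ml. For mesoderm the same base medium held activin A at 3 ng/ml, with Bmp4 at 7.5 ng/ml. Foxa2+; T- cells were sorted as definitive endoderm progenitors (DEP, CD24 low) or definitive endoderm (DE, CD24 high) on days 2 and 4. Foxa2-; T+ cells were sorted as mesoderm progenitors (MP, CD24 low) on days 2 and 4 or as mesoderm (MES, CD24 negative) on day 4. Each of the 8 groups had 2 arrays, 16 in all. Endoderm and mesoderm groups differed in lineage and in medium, and DE and MES also in their CD24 gate, which cannot be told apart. The labels call the replicates biological without further detail, so p-values measure the spread between these arrays, and in bulk RNA fewer cells of a type and less RNA per cell cannot be told apart.

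Collagens and laminins are secreted as trimers. An alpha, a beta and a gamma laminin chain join into a cross-shaped molecule that assembles into sheets, and collagen IV forms the second network of the basement membrane on which an epithelium rests. Fibronectin is assembled into fibrils on the cell surface, mainly through the integrin of Itga5 and Itgb1 chains, and embryos that lack it die early with defects in mesoderm and vessels. Integrins are alpha-beta pairs that connect these ligands to the actin cytoskeleton. Itga3, Itga6 and Itga7 bind laminins, Itga1, Itga2, Itga10 and Itga11 bind collagens, and Itga5, Itga8 and the beta chains Itgb3, Itgb5, Itgb6 and Itgb8 take part in receptors for the RGD motif of fibronectin, vitronectin or latent TGF-beta.

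Array medians lay between 7.42 and 7.49 on the log2 scale, and replicates correlated across probe sets with r from 0.987 to 0.994. The spread within groups was like that of all genes, with a median pooled SD of 0.123 over the members and of 0.121 over all genes. Markers fitted the labels. All 7 endoderm genes of a list that includes Sox17 and Cer1 were called higher in DE than in MES on day 4, and all 7 mesoderm genes lower. The lowest replicate correlation was that of DE on day 2, where replicate 2 stood apart. Its Col1a1 was 10.40 against 8.14 in replicate 1, its Col1a2 9.22 against 7.91 and its Lama1 9.29 against 7.23. Of 18 fibroblast genes, 5 were higher there by more than 0.5 (among them Lox, 6.87 against 5.70), 1 was lower and 12 were within 0.5, with a list mean of 7.01 against 6.71. Among the genes within 0.5, Dcn (6.26 in both) and Postn (5.38 against 5.22) were low in both arrays, and Acta2 read 9.41 against 9.49. Of 21 genes for collagen synthesis and cross-linking, a list that also holds Lox, 5 were higher in replicate 2 by more than 0.5, 0 were lower and 16 were within 0.5. Of 7 mesoderm genes only Kdr was higher by more than 0.5 (7.48 against 6.55), and of 7 parietal and visceral endoderm genes only Cubn (9.71 against 6.09). Of 7 definitive endoderm genes, 2 were higher by more than 0.5, Sox17 (11.09 against 10.40) and Foxa1 (11.76 against 11.18). In that list 2 were lower, Cer1 (12.38 against 13.29) and Gsc (11.33 against 12.33), and 3 were within 0.5. Of 7 pluripotency genes, 1 was lower, Pou5f1 (10.27 against 10.84), and 6 were within 0.5. The part of other cells in that array was not tested.

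Among the 7 sorted groups, the members with wide ranges were mostly laminins, integrins and fibronectin. The range of the group means exceeded 1 on the log2 scale for 18 of 76 members (23.7%), beside 14.8% of all genes. These were Fn1, 6 of 10 laminins, 8 of 21 integrins and 3 of 44 collagens. For 50 members the range was under 0.5. The median range was 1.36 for laminins, 0.36 for integrins and 0.25 for collagens, beside 0.39 for all genes. Many collagens read below the array medians on the sorted arrays, where a steady level and a lack of signal cannot be told apart. Without the DE day 2 array that stood apart, 18 members again exceeded 1, but the range of Col1a1 fell from 1.12 to 0.43 and that of the collagen Col23a1 went from 0.98 to 1.05. Since each probe set has its own brightness, levels are compared only between groups for the same gene.

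**Figure D1:**
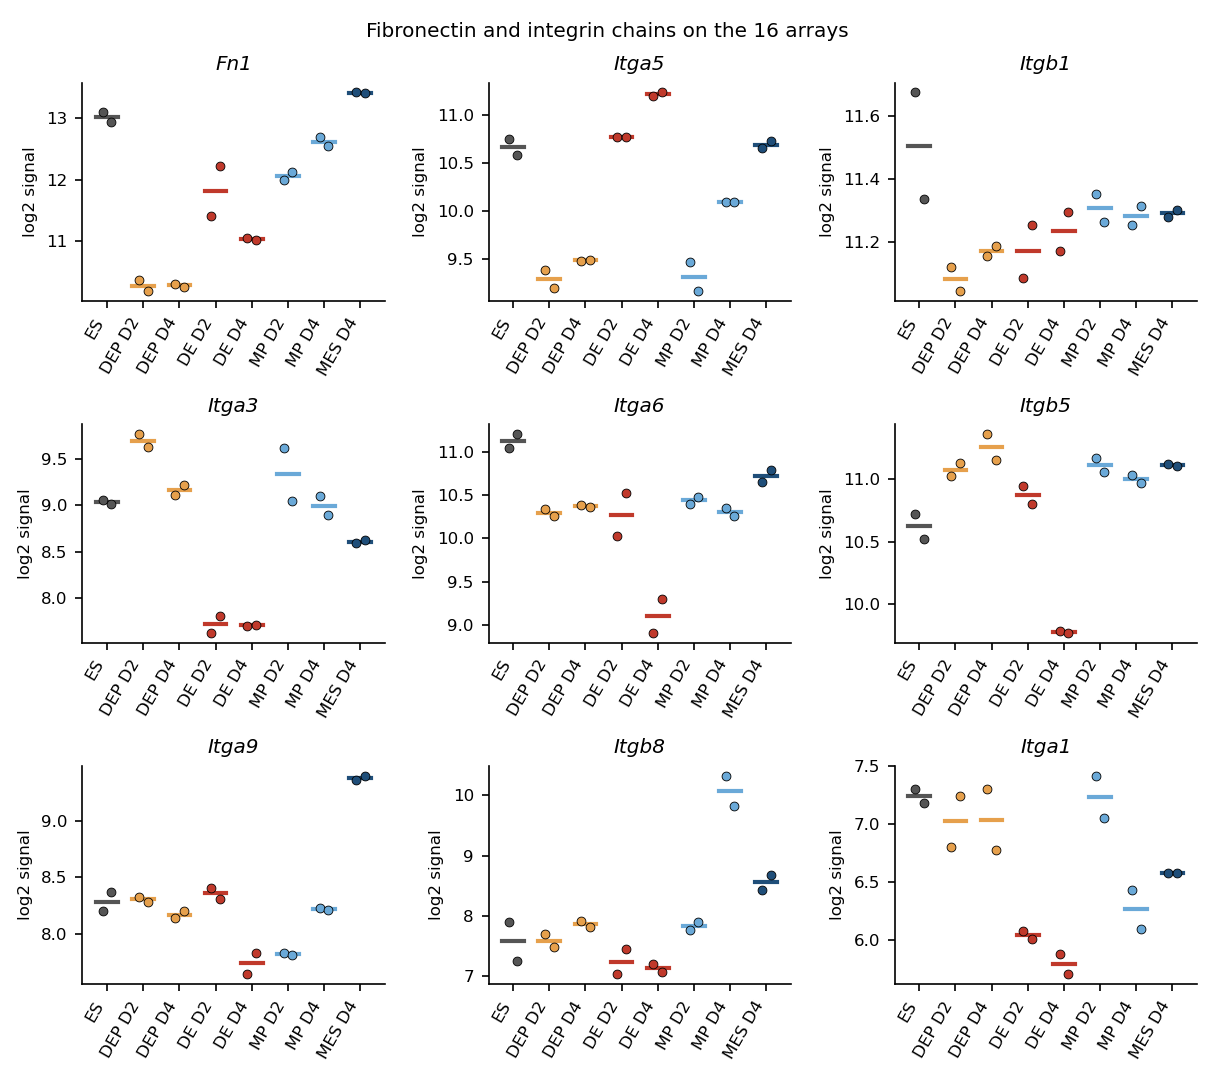
Log2 signal of fibronectin and 8 integrin chains (vertical axes, scaled for each gene) in the 8 groups (horizontal axis, D2 and D4 for days 2 and 4). Points are single arrays and bars the mean of 2. Fn1 was lowest in DEP and highest in MES, Itga5 was high in DE, and Itgb1 stayed between 11.04 and 11.67 on all arrays.

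Fibronectin had the widest range of all members in sorted cells, 3.16 on the log2 scale. Fn1 read 13.11 and 12.94 in ES cells, 10.35 and 10.17 in DEP on day 2, and 10.29 and 10.24 in DEP on day 4. In DE it read 11.40 and 12.22 on day 2 and 11.04 and 11.01 on day 4. In MP it read 12.00 and 12.13 on day 2 and 12.69 and 12.55 on day 4, and in MES 13.43 and 13.41. The order of the sorted groups was MES, MP of day 4, MP of day 2, DE of day 2, DE of day 4 and DEP of either day. In this order the arrays of neighbouring groups did not overlap, except those of MP and DE on day 2 and those of DEP on its 2 days. MES arrays were also above the ES arrays, but the difference of 0.40 ± 0.20 (log2 ± standard error) was not called (adjusted p = 0.201, limma).

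Fn1 was 4.22-fold lower in DEP than in MP over both days (log2 difference -2.08 ± 0.14, adjusted p = 2.05e-06). On day 4 it was 5.26-fold lower in DE than in MES (-2.40 ± 0.20, adjusted p = 3.92e-06). Within endoderm it was 2.22-fold higher in DE than in DEP (1.15 ± 0.14, adjusted p = 8.60e-05), with all DE arrays above all DEP arrays. That difference was 1.55 on day 2 and 0.76 on day 4, and without the DE day 2 array that stood apart it was 0.95 over both days, which is below the fold threshold of 1. From MP to MES on day 4 Fn1 differed by 0.80 ± 0.20 (adjusted p = 0.0490), also below that threshold.

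Itga5, the alpha chain of the main fibronectin receptor, had another order. It read 10.75 and 10.59 in ES cells, 9.38 and 9.20 in DEP on day 2, 9.48 and 9.49 in DEP on day 4, 10.77 and 10.78 in DE on day 2 and 11.20 and 11.24 in DE on day 4. In mesoderm it read 9.46 and 9.17 in MP on day 2, 10.09 and 10.09 in MP on day 4 and 10.66 and 10.73 in MES. DE arrays were thus highest and DEP arrays among the lowest. The gene was 3.05-fold higher in DE than in DEP (1.61 ± 0.08, adjusted p = 5.80e-08), and 1.61 without the array that stood apart. It was 2.60-fold lower in DEP of day 2 and 2.56-fold lower in MP of day 2 than in ES cells. Between MES and MP on day 4 it differed by 0.60 ± 0.11, and the rise from DEP to DE on day 4 exceeded that from MP to MES by 1.13 ± 0.15 (adjusted p = 0.000493).

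Itgb1, the beta chain that pairs with most alpha chains named here, moved little. It read 11.67 and 11.33 in ES cells, 11.12 and 11.04 in DEP on day 2, 11.15 and 11.19 in DEP on day 4, 11.08 and 11.25 in DE on day 2 and 11.17 and 11.29 in DE on day 4. It read 11.35 and 11.26 in MP on day 2, 11.25 and 11.31 in MP on day 4 and 11.28 and 11.30 in MES. The sorted group means spanned 0.23. Its difference between DE and DEP was 0.07, with a 95% interval from -0.10 to 0.25.

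Several laminin chains were higher in endoderm than in mesoderm, and 3 of 10 were called higher in DE than in MES on day 4 while Lama4 was called lower, beside 7.86% of all genes called in either direction. Lama5, Lamb1 and Lamc1 encode the 3 chains of the main laminin of early epithelial basement membranes, together with the alternative alpha chain Lama1. Lamb3 is the beta chain of the epithelial laminin that anchors hemidesmosomes. The alpha chain Lama3 read 6.60 to 6.98 on the sorted arrays, and its sorted group means spanned 0.33. Assembled laminin was not measured. Lama4 is an alpha chain of vessel and mesenchymal basement membranes.

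**Figure D2:**
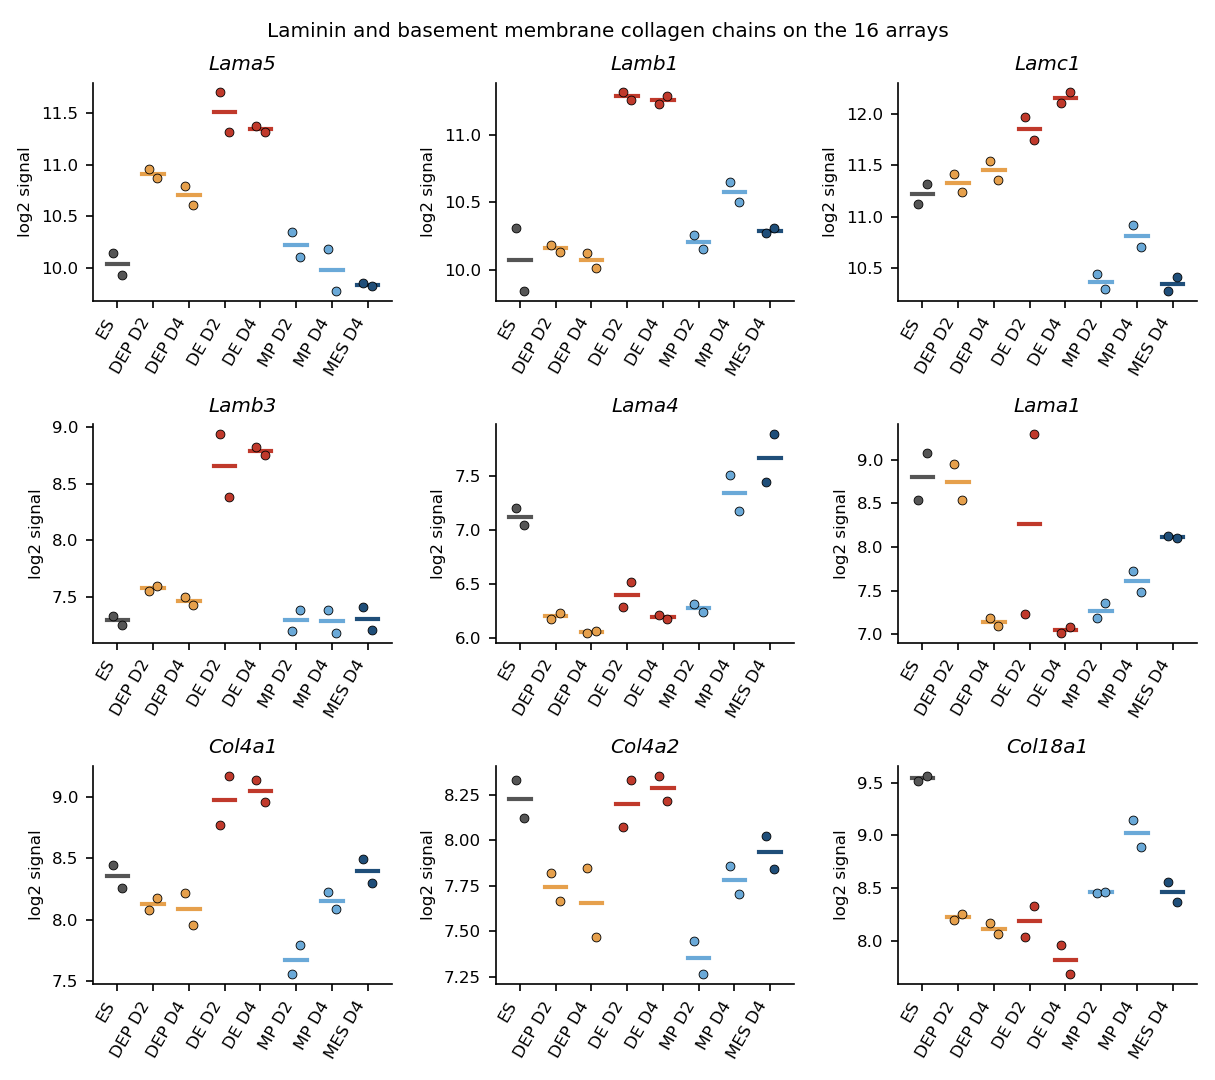
Log2 signal of 6 laminin chains and 3 basement membrane collagen chains (vertical axes, scaled for each gene) in the 8 groups. Points are single arrays and bars the mean of 2. Lamb1 and Lamb3 were higher on all DE arrays than on any other array, and Lama1 was split between the 2 DE arrays of day 2.

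Lamb1 read 10.31 and 9.84 in ES cells, 10.19 and 10.13 in DEP on day 2, 10.13 and 10.01 in DEP on day 4, 11.31 and 11.26 in DE on day 2 and 11.23 and 11.29 in DE on day 4. In mesoderm it read 10.25 and 10.15 in MP on day 2, 10.65 and 10.50 in MP on day 4 and 10.27 and 10.31 in MES. All DE arrays lay above all other arrays. Lamb1 was 2.23-fold higher in DE than in DEP (1.16 ± 0.09, adjusted p = 2.77e-06) and 2.27-fold higher in DE of day 4 than in ES cells. Against MES the difference of 0.97 ± 0.13 (adjusted p = 0.000205) fell just below the fold threshold.

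Lamb3 read 8.94 and 8.38 in DE on day 2 and 8.82 and 8.75 on day 4, and between 7.18 and 7.60 on the other 12 arrays. The DE arrays stood apart from all other groups. It was 2.31-fold higher in DE than in DEP (1.21 ± 0.11, adjusted p = 9.41e-06), 2.79-fold higher than in MES and 2.82-fold higher in DE of day 4 than in ES cells.

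Lamc1 read 11.12 and 11.32 in ES cells, 11.41 and 11.23 in DEP on day 2, 11.54 and 11.35 in DEP on day 4, 11.96 and 11.75 in DE on day 2 and 12.11 and 12.21 in DE on day 4. In mesoderm it read 10.44 and 10.29 in MP on day 2, 10.92 and 10.71 in MP on day 4 and 10.28 and 10.41 in MES. All endoderm arrays were above all mesoderm arrays. On day 4 Lamc1 was 3.51-fold higher in DE than in MES (1.81 ± 0.13, adjusted p = 1.02e-06), and it differed by 0.80 ± 0.09 between DEP and MP (adjusted p = 0.000103).

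Lama5 showed the same separation, with 11.70 and 11.31 in DE on day 2, 11.37 and 11.32 in DE on day 4 and 10.61 to 10.96 in the 4 DEP arrays. The 6 mesoderm arrays read between 9.78 and 10.34 and the ES arrays 10.15 and 9.93. Lama5 was 2.84-fold higher in DE than in MES on day 4 (1.51 ± 0.16, adjusted p = 3.14e-05), while its difference between DE and DEP was 0.62.

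Lama4 went the other way and was high in mesoderm of day 4. It read 7.51 and 7.17 in MP on day 4 and 7.44 and 7.89 in MES, against 6.32 and 6.24 in MP on day 2 and 6.05 to 6.52 on the 8 endoderm arrays. The ES arrays read 7.21 and 7.05. It was 2.77-fold lower in DE than in MES on day 4 (-1.47 ± 0.15, adjusted p = 2.20e-05) and 2.08-fold higher in MP of day 4 than of day 2 (1.06 ± 0.15, adjusted p = 0.00139). Of 6 endothelial genes, 2 were called higher in MP of day 4 than of day 2, beside 1.74% of all genes called in either direction. Cdh5 read 8.68 and 9.09 against 7.46 and 7.30, and Pecam1 8.50 and 8.63 against 7.16 and 6.95. The means of day 4 and day 2 were 6.93 and 6.90 for Tie1 and 5.02 and 5.16 for Emcn. The list mean rose from 6.89 and 6.90 to 7.49 and 7.55. From MP to MES on day 4 the mean of Pecam1 fell from 8.57 to 7.45, and that of Cdh5 went from 8.88 to 8.79. The mean of Tek rose from 6.56 to 6.87 and that of Egfl7 from 9.15 to 9.56. In MES the list mean was 7.47 and 7.43, and the Lama4 arrays of MP and MES on day 4 overlapped. The part of such cells in the Lama4 signal was not tested.

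Lama1 was split by day and by array. It read 8.54 and 9.07 in ES cells, 8.95 and 8.53 in DEP on day 2, 7.19 and 7.10 in DEP on day 4, 7.23 and 9.29 in DE on day 2 and 7.02 and 7.09 in DE on day 4. It read 7.19 and 7.35 in MP on day 2, 7.73 and 7.49 in MP on day 4 and 8.13 and 8.10 in MES. High values in endoderm were thus those of DEP on day 2 and of the single DE array that stood apart. Cubn, a receptor of visceral endoderm, was high on the same 3 endoderm arrays, at 10.46 and 9.77 in DEP on day 2 and 9.71 in that DE array, and at most 7.76 on the other 5. The other 6 genes of the parietal and visceral endoderm list did not share this. Afp, Amn, Plat, Thbd and Ttr each differed by less than 0.5 between the DE arrays of day 2, and Apoa1 was lower in DEP of day 2 (7.76 and 7.94) than of day 4 (8.42 and 9.06) and read 7.94 in that DE array against 8.04 in its replicate. The fall of Lama1 in DEP from day 2 to day 4 was -1.60 ± 0.46 and was not called (adjusted p = 0.263), but the adjusted p was 0.00205 with either DE array of day 2 left out. The pooled spread in the main test includes that pair. With only the DEP arrays fitted in limma, the fall of Lama1 was not called either (adjusted p = 0.0691).

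Promoters are shown for the 4 chains called higher in DE than in DEP or MES that have an entry in the RefSeq promoter table (build GRCm38.p6). Of the 76 members, 56 matched by gene number, with 62 windows. Each sequence is the 250 bases before the annotated start, 5′ to 3′ on the strand of the gene, and capitals mark GGGCGG or its complement CCGCCC, the core of the GC box. Lama5 lies on the minus strand at chr2:180225860-180226109, Lamb1 on the plus strand at chr12:31265043-31265292, Lamb3 (the more upstream of 2 annotated starts) on the plus strand at chr1:193301744-193301993, and Itga5 on the minus strand at chr15:103366792-103367041.
Lama5: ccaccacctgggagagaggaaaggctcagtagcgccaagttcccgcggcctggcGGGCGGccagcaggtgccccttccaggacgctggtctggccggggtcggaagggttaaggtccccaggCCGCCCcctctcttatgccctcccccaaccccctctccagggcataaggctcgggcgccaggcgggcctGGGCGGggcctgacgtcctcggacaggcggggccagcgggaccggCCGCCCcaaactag
Lamb1: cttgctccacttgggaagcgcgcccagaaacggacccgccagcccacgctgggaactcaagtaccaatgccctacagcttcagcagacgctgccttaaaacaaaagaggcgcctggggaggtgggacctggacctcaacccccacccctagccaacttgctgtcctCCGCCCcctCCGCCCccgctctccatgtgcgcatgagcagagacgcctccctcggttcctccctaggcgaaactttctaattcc
Lamb3: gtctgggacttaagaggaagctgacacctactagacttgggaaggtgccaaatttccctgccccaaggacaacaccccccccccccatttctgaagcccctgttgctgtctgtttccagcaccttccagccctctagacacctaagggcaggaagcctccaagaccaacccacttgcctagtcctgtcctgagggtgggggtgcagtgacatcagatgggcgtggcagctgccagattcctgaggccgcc
Itga5: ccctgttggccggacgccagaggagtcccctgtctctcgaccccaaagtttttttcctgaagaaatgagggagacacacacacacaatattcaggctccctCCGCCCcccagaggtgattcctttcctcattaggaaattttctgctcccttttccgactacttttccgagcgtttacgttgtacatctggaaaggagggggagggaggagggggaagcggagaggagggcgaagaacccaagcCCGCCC

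The GC box core was found 4 times in the Lama5 window, 2 times in Lamb1, 2 times in Itga5 and not in Lamb3. It lay in 30 of the 62 member windows (48.4%) and in 32.7% of all 32851 windows. The letters TGTTTAC, a core bound by forkhead factors such as Foxa2, and AGATAA, bound by Gata factors, were in none of the 4 windows on either strand. They were in 1 and 2 of the 62 member windows (1.61% and 3.23%), and in 3.17% and 9.99% of all windows. These letters are not a map of binding sites.

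Among integrin chains that bind laminin or collagen, Itga3 and Itga1 were called lower in DE than in DEP. The sorted group means of Itga2, Itga7, Itga10 and Itga11 spanned 0.13 to 0.30. On the sorted arrays these read 5.83 to 6.15, 6.82 to 7.32, 7.11 to 7.44 and 6.82 to 7.18. They lay at or below the array medians of 7.42 to 7.49, so a steady level and a lack of signal cannot be told apart. Itga1 was also weak and read at most 7.42 on the sorted arrays. Itga3, a laminin-binding chain of epithelia, read 9.76 and 9.62 in DEP on day 2, 9.11 and 9.22 in DEP on day 4, 7.63 and 7.81 in DE on day 2 and 7.70 and 7.71 in DE on day 4. In all other groups it read between 8.59 and 9.62, so DE was lowest. Itga3 was 3.29-fold lower in DE than in DEP (-1.72 ± 0.11, adjusted p = 5.21e-07) and 2.50-fold lower in DE of day 4 than in ES cells. Itga1, which binds collagen, read 5.70 to 6.08 on the 4 DE arrays and 6.77 to 7.31 on the 4 DEP arrays. It was 2.16-fold lower in DE (-1.11 ± 0.14, adjusted p = 0.000113), and -0.98, below the fold threshold, on day 2 alone or without replicate 1 of DEP on day 4.

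Itga6, the other main laminin-binding chain, was lower on every sorted array than in ES cells, and lowest in DE of day 4. It read 11.04 and 11.20 in ES cells, 10.34 and 10.25 in DEP on day 2, 10.39 and 10.36 in DEP on day 4, 10.02 and 10.52 in DE on day 2 and 8.91 and 9.30 in DE on day 4. It read 10.40 and 10.48 in MP on day 2, 10.35 and 10.25 in MP on day 4 and 10.65 and 10.79 in MES. DE of day 4 was the only group below 10. Itga6 was 2.24-fold lower in DE of day 4 than of day 2 (-1.17 ± 0.16, adjusted p = 0.00133), 3.06-fold lower than in MES and 4.04-fold lower than in ES cells. Without the DE day 2 array that stood apart the fall between the days was -0.92, and without replicate 1 of DE on day 4 it was -0.97, both below the fold threshold. With only the DE arrays fitted it was not called (adjusted p = 0.124).

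The RGD-binding chains Itgb5 and Itga8 were also lower in DE on day 4. With only the 4 DE arrays fitted, 0 members were called between the days. Itgb5 read 10.94 and 10.80 in DE on day 2 and 9.78 and 9.77 on day 4, and between 10.52 and 11.36 on all other arrays. It was 2.14-fold lower in DE on day 4 than on day 2 (-1.09 ± 0.10, adjusted p = 0.000115) and 2.51-fold lower than in MES. Itga8 read 7.73 and 7.59 in DE on day 2 and 6.58 and 6.55 on day 4. It was 2.14-fold lower on day 4 (-1.10 ± 0.12, adjusted p = 0.000419) and 2.38-fold lower than in MES, where it read 7.76 and 7.87. The change with the day of the DE-DEP difference was itself called for Itga6 (-1.24 ± 0.23, adjusted p = 0.0245) and Itgb5 (-1.28 ± 0.14, adjusted p = 0.00199). Without the DE day 2 array that stood apart it was -0.99 for Itga6, below the fold threshold, and -1.35 for Itgb5 (adjusted p = 0.00287). The fall from day 2 to day 4 was then -1.17 ± 0.12 for Itgb5 and -1.17 ± 0.15 for Itga8, both called.

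Other chains were high in parts of the mesoderm. Itgb8, the beta chain of a receptor that releases active TGF-beta, read 7.76 and 7.91 in MP on day 2, 10.32 and 9.83 in MP on day 4 and 8.44 and 8.68 in MES. On the 8 endoderm arrays it read 7.03 to 7.91. It was 4.74-fold higher in MP on day 4 than on day 2 (2.24 ± 0.22, adjusted p = 0.000103) and 2.86-fold lower in MES than in MP of day 4 (-1.52 ± 0.22, adjusted p = 0.00218). The call of lower Itgb8 in DEP than in MP over both days (-1.23 ± 0.16) rested on day 4, where the difference was -2.21, against -0.24 on day 2. Itga9, a chain that binds tenascin and other ligands, read 9.36 and 9.39 in MES and between 7.65 and 8.41 on every other array. It was 2.22-fold higher in MES than in MP of day 4 (1.15 ± 0.09, adjusted p = 3.60e-05), 3.10-fold higher than in DE and 2.13-fold higher than in ES cells.

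**Figure D3:**
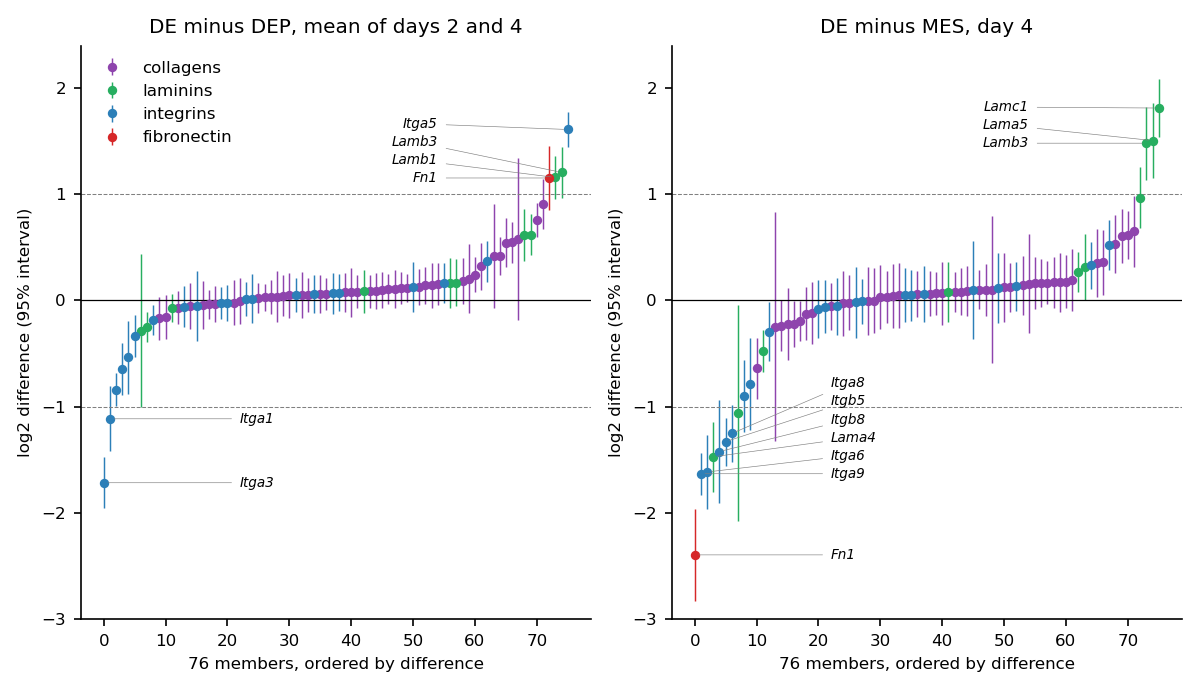
Log2 differences of all 76 members between DE and DEP (left, mean of days 2 and 4) and between DE and MES (right, day 4), each ordered by size, with 95% intervals from limma and colours for the family. Dashed lines mark the fold threshold and called members are named; Lama1 passed the line on the right without a call.

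Read across the comparisons, a member was called when its absolute log2 difference was above 1 and its adjusted p below 0.05. Between DE and DEP 4 members were higher and 2 lower, 7.89% of the members beside 4.67% of all 18716 genes. Between DEP and MP 2 were lower, 2.63% beside 1.98%. Between DE and MES on day 4, 3 were higher and 7 lower, 13.2% beside 7.86%. Between MES and MP on day 4, 1 was higher and 1 lower, 2.63% beside 1.18%. These counts are small, and the median difference between DE and DEP was 0.07 over the members and 0.01 over all genes. Without the DE day 2 array that stood apart, 3 members were higher in DE than in DEP and 2 lower. Fn1 lost its call, and the differences were 1.17 for Lamb1, 1.34 for Lamb3, 1.61 for Itga5, -1.76 for Itga3 and -1.10 for Itga1. Among uncalled members the difference was 0.71 for Lama5, 0.67 for Lamc1, 0.81 for Col4a1, 0.48 for Col4a2 and 0.79 for Col23a1.

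Over time, 3 members were lower in DE of day 4 than of day 2, 3.95% beside 1.87% of all genes, and 2 were higher in MP of day 4, 2.63% beside 1.74%. In DEP limma called 0 of 76 members between the days, beside 0.443% of all genes. Here 4 members had an unadjusted p under 0.05, and with trended and robust variance the count was again 0. The change with the day was called for 2 members in the DE-DEP difference, 2.63% beside 1.05%, and for Itgb8 and Lama4 in the DEP-MP difference, 2.63% beside 1.57%. On day 4 the step from DEP to DE differed from that from MP to MES for 9 members, 11.8% beside 7.39% of all genes. Lamb1, Lamb3, Lamc1 and Itga5 had the higher step in endoderm, and Itga1, Itga3, Itga6, Itga9 and Itgb5 the lower one.

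By limma 0 of 44 collagens were called between DE and DEP, DEP and MP, DE and MES or MES and MP, and 0 with trended and robust variance, beside 4.67%, 1.98%, 7.86% and 1.18% of all genes. At an unadjusted p under 0.05 the counts were 7, 3, 9 and 2 of 44. Many collagens were weak on the sorted arrays, such as Col12a1 (6.02 to 6.28), Col28a1 (6.18 to 6.51) and Col9a1 (6.64 to 7.02). These lay below the array medians of 7.42 to 7.49. So did Col4a3, Col4a5, Col4a6, Col5a2, Col6a5, Col8a1, Col8a2, Col10a1 and Col19a1 on every sorted array. For such probe sets a steady level and a lack of signal cannot be told apart, so the counts of 0 do not show steady expression there. Below the fold threshold, 7 collagens had an adjusted p under 0.05 between DE and DEP, all higher in DE, and 5 between DE and MES, 4 of them higher and 1 lower. Among the collagens are the collagen IV chains Col4a1 and Col4a2, which form the common collagen IV trimer. Col4a1 read 8.45 and 8.26 in ES cells, 8.08 and 8.18 in DEP on day 2, 8.22 and 7.96 in DEP on day 4, 8.78 and 9.17 in DE on day 2 and 9.14 and 8.96 in DE on day 4. It read 7.55 and 7.80 in MP on day 2, 8.23 and 8.09 in MP on day 4 and 8.50 and 8.30 in MES. Every DE array was above every other array, and the difference from DEP was 0.90 ± 0.11 (adjusted p = 7.92e-05), below the fold threshold.

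Col4a2 read 8.33 and 8.12 in ES cells, 7.82 and 7.66 in DEP on day 2, 7.85 and 7.47 in DEP on day 4, 8.07 and 8.33 in DE on day 2 and 8.35 and 8.22 in DE on day 4. It read 7.45 and 7.26 in MP on day 2, 7.86 and 7.71 in MP on day 4 and 8.02 and 7.84 in MES. It moved as Col4a1 did among the sorted groups, lowest in MP of day 2 and highest in DE, with 0.54 ± 0.10 between DE and DEP (adjusted p = 0.00264). The annotated starts of this pair lie 21 bases apart on opposite strands of chromosome 8 in GRCm38.p6.

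Col23a1, a membrane-anchored collagen, read 8.71 to 8.90 in DE and 7.75 to 8.29 in DEP (0.76 ± 0.07, adjusted p = 1.54e-05). Col14a1, which binds the surface of collagen fibrils, read 8.28 and 8.09 in DE of day 4 and at most 7.72 elsewhere, and was 2.04-fold higher there than in ES cells. Col18a1, a basement membrane collagen that gives rise to endostatin, read 9.51 and 9.56 in ES cells, 9.14 and 8.89 in MP on day 4 and 7.68 to 8.56 on the other sorted arrays of day 4. Itgb6 read 4.96 to 5.40 on all arrays, below the array medians of 7.42 to 7.49, so a steady level and a lack of signal cannot be told apart.

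ES arrays stood apart from all sorted arrays in collagens of connective tissue. Col12a1, a fibril-associated collagen, read 10.73 and 10.43 in ES cells and 6.02 to 6.28 on the 14 sorted arrays, and was 20.3-fold lower in DEP of day 2 and 21.1-fold lower in MP of day 2. Col8a1 read 9.08 and 8.22 against 6.45 to 6.98, Col6a3 9.03 and 8.84 against 6.97 to 7.49, and the integrin chain Itga4, a receptor for fibronectin and Vcam1, 9.05 and 8.32 against 6.13 to 6.59. These 4 were called lower in DEP and MP of day 2 and in DE and MES of day 4, as were Col1a2 and Col18a1. All 4 comparisons share the same 2 ES arrays.

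**Figure D4:**
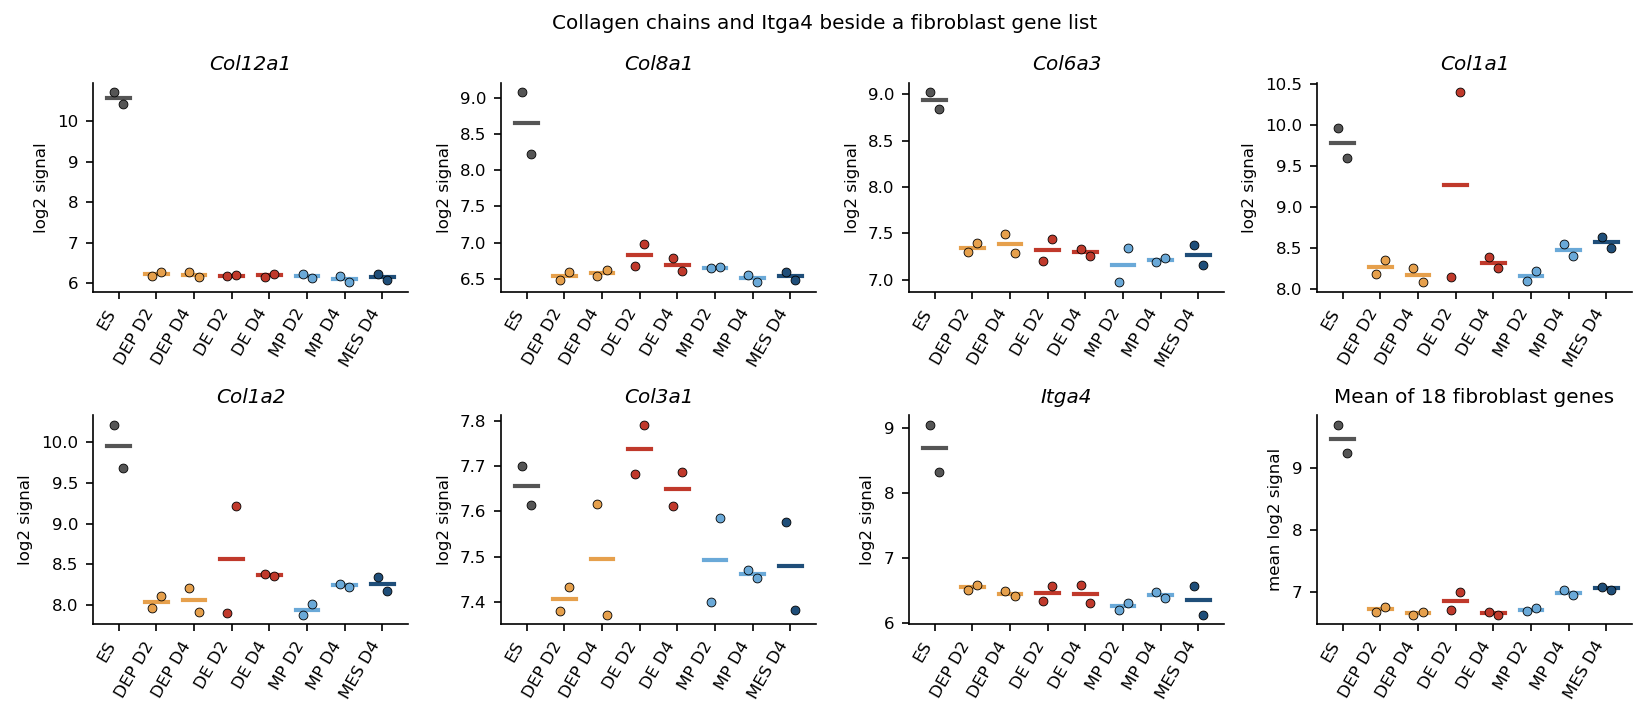
Log2 signal of 6 collagen chains and Itga4, and the mean log2 signal of 18 fibroblast genes (vertical axes, scaled for each panel) in the 8 groups. Points are single arrays and bars the mean of 2. The panels of Col12a1, Col8a1, Col6a3 and Itga4 have the shape of the fibroblast panel, and Col1a1 and Col1a2 were also high on 1 DE array of day 2.

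The fibrillar chains Col1a1 and Col1a2, which form type I collagen, followed in part. Col1a1 read 9.96 and 9.59 in ES cells, 8.18 and 8.35 in DEP on day 2, 8.25 and 8.08 in DEP on day 4, 8.14 and 10.40 in DE on day 2, 8.39 and 8.25 in DE on day 4, 8.09 and 8.22 in MP on day 2, 8.54 and 8.40 in MP on day 4 and 8.63 and 8.50 in MES. Col1a2 read 10.21 and 9.68 in ES cells, 7.96 and 8.12 in DEP on day 2, 8.21 and 7.91 in DEP on day 4, 7.91 and 9.22 in DE on day 2, 8.38 and 8.36 in DE on day 4, 7.88 and 8.01 in MP on day 2, 8.26 and 8.23 in MP on day 4 and 8.35 and 8.18 in MES. Both were above all sorted arrays in ES cells, but for Col1a1 in the DE array that stood apart. Col1a2 was called lower than in ES cells in all 4 comparisons, by 2.99-fold to 4.00-fold. Col1a1 was called in MP of day 2 (-1.62 ± 0.49, adjusted p = 0.0464) and DE of day 4 (-1.46 ± 0.49, adjusted p = 0.0428), and each call was lost on leaving out any of 14 of the 16 arrays.

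Col3a1, the fibrillar chain of soft tissue, did not share this. It read 7.70 and 7.61 in ES cells, 7.38 and 7.43 in DEP on day 2, 7.62 and 7.37 in DEP on day 4, 7.68 and 7.79 in DE on day 2, 7.61 and 7.69 in DE on day 4, 7.40 and 7.59 in MP on day 2, 7.47 and 7.45 in MP on day 4 and 7.58 and 7.38 in MES. The difference between DE of day 4 and ES cells was -0.01, with a 95% interval from -0.25 to 0.23. All Col3a1 readings lay near the array medians of 7.42 to 7.49, so a steady level and a lack of signal cannot be told apart.

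In number, 8 members were lower in DEP of day 2 than in ES cells, 10.5% beside 4.74% of all genes. In MP of day 2, 12 were lower, 15.8% beside 4.94%. In DE of day 4, 4 were higher and 12 lower, 21.1% beside 11.4%, and in MES 1 was higher and 6 lower, 9.21% beside 7.09%. The genes higher in DE were Lamb1, Lamb3, Lama5 and Col14a1, and the one in MES was Itga9.

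Fibroblast genes moved with the ES collagens. The mean of 18 genes that mark fibroblasts, no member among them, was 9.70 and 9.24 in ES cells and 6.64 to 7.08 on the 14 sorted arrays. Of the 16 that were tested, 15 were called lower than in ES cells in DEP and MP of day 2 and in DE of day 4, and 14 in MES. Dcn, a proteoglycan of fibroblasts, averaged 10.99 in ES cells and at most 6.43 elsewhere, and Postn 10.36 and 10.18 against 5.14 to 5.41. ES cells were unsorted and kept on feeders, so a loss of these collagens in ES cells themselves and a loss of feeder RNA cannot be told apart. Fn1, Itga5 and Itga6 were also high in ES cells but, unlike Col12a1, were high in some sorted groups too. Their levels in sorted cells do not show how much of their ES signal came from feeders, which was not tested. The same limit therefore holds for their differences from ES cells.

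Partner genes of the matrix were read from lists. Of 15 basement membrane partners, 0 were called between DE and DEP by limma over both days, beside 4.67% of all genes. With trended and robust variance the count was again 0, and 12 had an unadjusted p under 0.05. On day 4 alone 3 were higher and 1 lower. Between DE and MES 2 were higher and 2 lower, beside 7.86% of all genes called in either direction. The higher were Egfl6 (2.80 ± 0.25) and the integrin ligand Npnt (1.42 ± 0.12). The lower were the heparan sulphate proteoglycan Hspg2 (-1.54 ± 0.14) and the laminin linker Nid1 (-1.03 ± 0.23). Between MES and MP, Npnt, Fras1 and Frem2 were lower by -1.32, -1.10 and -1.02, beside 1.18% of all genes called. In DE of day 4, Pxdn, which cross-links collagen IV, read 11.82 and 11.89 against 10.44 and 10.10 in ES cells and 10.86 and 10.91 in MES.

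Of 21 tested genes for collagen synthesis and cross-linking, 1 was higher and 2 lower in DE than in DEP, beside 4.67% of all genes. P3h2, a prolyl hydroxylase with a preference for collagen IV, read 10.88 and 11.16 in DE of day 4 and 11.13 and 11.03 in MES, and at most 9.86 on all other arrays. Plod2, a lysyl hydroxylase of collagen telopeptides, was lower in DE than in DEP by -1.25 ± 0.15 and Pcolce2 by -1.05 ± 0.08. Without the DE day 2 array that stood apart the differences were 1.37 ± 0.21 for P3h2, -1.45 ± 0.10 for Plod2 and -1.13 ± 0.07 for Pcolce2, all called. Against ES cells 7 or 8 of the 21 were lower in each of the 4 sorted groups compared, and in DE and MES 1 was higher. The shares of all genes called in either direction were 4.74% to 11.4%. Among the lower was Lox, which cross-links fibrillar collagen and is also on the fibroblast list (-4.45 to -4.87).

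Of 19 tested genes of the integrin adhesion machinery, 2 were higher in DE than in DEP by limma, beside 4.67% of all genes. These were Fermt1 (1.93 ± 0.17, adjusted p = 6.60e-06) and Parvb (1.26 ± 0.11, adjusted p = 5.14e-06). Without that DE array they were 1.79 ± 0.17 and 1.19 ± 0.12, both called. Fermt1, an activator of integrins in epithelia, read 9.54 and 9.54 in DE of day 4 and 6.27 and 6.76 in MES. Of the 6 integrin alpha chains named by a letter, 0 were called by limma in the comparisons of sorted groups. The shares of all genes there were 0.443% to 7.86%, and with trended and robust variance the count for these chains was again 0. At an unadjusted p under 0.05 there was 1, between DE and DEP. Itgav was lower in DEP (-1.07 ± 0.16) and MP (-1.01 ± 0.16) of day 2 than in ES cells. Of 6 tested other ligands, Tnc, Thbs1 and Thbs2 were lower than in ES cells in all 4 sorted groups compared. Tnc read 12.98 and 12.95 in ES cells and 6.42 to 8.42 on sorted arrays. The ES cells were unsorted and kept on feeders, and the part of feeder RNA in these ligands and Itgav was not tested.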

How the data were processed

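RNA of 16 samples was hybridised to Affymetrix Mouse Gene ST arrays. The authors applied RMA (oligo 1.48.0) to the arrays as 1 set, and their deposited table holds log2 signals by probe set. RMA gives arrays a common distribution and compresses differences of weak probe sets. Groups were taken from the sample labels. From the deposited log2 values those 32000 of 35556 probe sets with the highest means were kept, as the study did, and 8 group means were estimated with limma (version 3.58.1, R 4.3.3, eBayes). Calls needed an absolute log2 difference over 1 and an adjusted p (Benjamini-Hochberg, over all 32000) under 0.05. Every adjusted p comes from this model unless its sentence names another fit or set of arrays. Of the probe sets kept, 20427 carry 1 symbol, 1400 several and 10173 none, which leaves 18716 named genes, the background of all percentages. Only 2 arrays per group limit the precision.

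Always named with every array were Fn1, Col4a1, Col4a2, Lama1, Lamb1, Lamc1, Itga5, Itga6, Itgb1, Col1a1, Col1a2 and Col3a1, and in each comparison up to 8 called members of largest difference. The members and lists were chosen with earlier results of these data known. The fit was tested on simulated data. Alternatives were other filters, moderations, probe set rules, array sets, days and a replicate block.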

Additional observations from a re-analysis of the deposited data

Results flagged for a closer look

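The DE-DEP difference changed with the day for 2 integrin chains, by a test of the change itself in limma. From day 2 to day 4 it changed by -1.24 ± 0.23 for Itga6 (adjusted p = 0.0245) and by -1.28 ± 0.14 for Itgb5 (adjusted p = 0.00199). Without replicate 2 of DE on day 2 the change was -0.99 for Itga6, below the fold threshold, and -1.35 for Itgb5. The DEP-MP difference changed by -1.97 ± 0.31 for Itgb8 (adjusted p = 0.00596) and by -1.21 ± 0.21 for Lama4 (adjusted p = 0.0115).

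On day 4 the step from CD24 low to CD24 high cells of the endoderm differed from the step from CD24 low to CD24 negative cells of the mesoderm for 9 members. The endoderm step was higher for Lamb1 by 1.47 (adjusted p = 0.000291), for Lamb3 by 1.30 (adjusted p = 0.00238), for Lamc1 by 1.18 (adjusted p = 0.00109) and for Itga5 by 1.13 (adjusted p = 0.000493). For the other 5 chains the difference of the steps was negative, at -1.69 for Itga6 (adjusted p = 0.000465), -1.59 for Itgb5 (adjusted p = 3.84e-05), -1.58 for Itga9 (adjusted p = 2.07e-05), -1.56 for Itga1 (adjusted p = 0.00311) and -1.07 for Itga3 (adjusted p = 0.00724).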

How the results depend on the processing

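Of 124 results for single genes, 81 were called, 22 of these lost the call under at least 1 alternative and 13 changed sign under one, none of which was called. With 1 array left out at a time, the number of members called ranged from 5 to 8 for DE and DEP, 10 to 11 for DE and MES, 2 to 6 for DE over time (2 without replicate 2 of DE on day 2 and 6 without replicate 1), 0 to 1 for DEP over time, 2 to 4 for MP over time (4 without replicate 2 of MP on day 2), 8 to 10 for DEP and ES, 7 to 12 for MP and ES (7 without replicate 1 of ES or of MP on day 2), 13 to 17 for DE and ES and 6 to 10 for MES and ES. It was 2 throughout for DEP and MP and for MES and MP, 1 to 4 for the change with the day of the DE-DEP difference, 1 to 3 for that of the DEP-MP difference and 8 to 9 for the comparison of the steps on day 4. With 16000 probe sets, on which 30 of 76 members were tested, the counts were 1 for MP over time, 5 for DEP and ES, 5 for MP and ES, 9 for DE and ES, 3 for MES and ES and 1 for the change of the DEP-MP difference. With only the arrays of the groups compared they were 0 for DE over time and 1 for the change of the DE-DEP difference, and with day 2 alone 1 for DEP and MP. The cause was not tested where the setting itself does not give it by fewer genes or arrays.

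Changes of sign were all in uncalled differences. Between DE and DEP, Lama1 ranged from -0.80 to 0.23 with 1 array left out. Between DEP and MP, Col1a2 ranged from -0.12 to 0.028 and Col3a1 from -0.088 to 0.035. On day 2 alone Col1a1 was 0.11 and Col1a2 0.094, and on day 4 alone Col3a1 was 0.033, Col4a1 -0.069, Col4a2 -0.12, Itga6 0.075 and Lama1 -0.46. Between DE and MES, Itgb1 ranged from -0.12 to 0.0035, and Col1a1 was 0.23 with DE as the mean of both days. Between MES and MP, Col1a2 ranged from -0.067 to 0.11, Col3a1 from -0.079 to 0.12 and Itgb1 from -0.022 to 0.038. The labels do not say whether the replicate numbers pair the arrays. Replicate deviations correlated from -0.204 to 0.246 (median 0.044) over 28 pairs of groups, and 8 pairs were above 0.1. These correlations cannot exclude a pairing in some groups. A replicate block left the count at 11 for MP and ES, without Col1a1 (adjusted p = 0.0522), and changed no other count.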
